A study of Mus musculus with 88 samples.

Results

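The proteasome is the large protease that degrades proteins tagged with ubiquitin. Its subunits and helpers are encoded in the mouse by genes whose symbols start with Psm. Members were taken by symbol, as every gene named Psma, Psmb, Psmc, Psmd, Psme, Psmf or Psmg followed by a number, and 48 of the 55364 genes of each table matched. They comprise 19 core genes (8 Psma and 11 Psmb), 20 regulatory genes (6 Psmc and 14 Psmd) and 9 activator or assembly genes (4 Psme, 1 Psmf and 4 Psmg).

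Total RNA was measured in 25 libraries of mouse embryonic stem cells (mESCs, 19 libraries) and late 2-cell embryos (6 libraries), out of 88 samples in the series. The mESCs were male, wild-type and of a hybrid of C57BL/6 and 129, and all were grown in GMEM with 15% FBS, LIF, 0.5 µM PD0325901 and 3 µM CHIR99021, inhibitors of MEK and GSK3. They were transfected by lipofection with a plasmid for 1 gene. There were 2 libraries each for Obox3 (ES_Obox3), for Obox6 (ES_Obox6), for Obox5 (ES_Obox5), for Dux (ES_Dux) and for a control plasmid without insert (ES_Empty), and 9 further libraries carried Obox1, Obox2, Obox4ps27, Obox4ps35, Obox7, Obox8, Crxos1, Crxos2 or Crxos3, with 1 library each. Obox genes and Crxos encode homeodomain proteins of the early embryo, and Dux encodes a homeodomain protein that switches on 2-cell genes. The wild-type embryos were BDF1 embryos made by sperm injection (ICSI_L2C), or clones made by placing a BDF1 cumulus cell nucleus in an enucleated oocyte and injecting 10 ng/µl of mRNA for EGFP (SCNT_EGFP_L2C) or for Obox3 (SCNT_Obox3_L2C), with 2 libraries each. All embryos were cultured in KSOM. No measure of how many cells took up a plasmid is used here.

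Values are in TPM, read counts corrected for the length of the gene and expressed per fixed total of the library. With the total held fixed, all other genes go down when a few abundant ones go up, and the 10 most abundant genes took 48.9 to 73.8% of a library in mESCs and 57.4 to 72.6% in embryos. Each fold change is therefore given as deposited and, where it matters, after median-ratio scaling, which divides each library by the median ratio of its genes to their average. The introduced genes stood highest in their own mESC groups, at 1548 and 1979 TPM for Duxf3 in ES_Dux, 933.3 and 970.7 TPM for Obox5 in ES_Obox5 and 1959 and 2031 TPM for Obox6 in ES_Obox6. Obox3 had 1.59 and 1.75 TPM in ES_Obox3 and at most 0.502 TPM in the other 17 mESC libraries, far below the levels of Obox5 and Obox6 in their groups. In the embryos it had 5.02 and 6.74 TPM in SCNT_Obox3_L2C, 0.47 and 3.22 TPM in SCNT_EGFP_L2C, and 64.6 and 78.7 TPM in ICSI_L2C. The summed level of 7 stem cell markers was 1056 to 1227 TPM in ES_Empty, 376 to 515 TPM in ES_Obox3, 549 to 554 TPM in ES_Obox5, 541 to 651 TPM in ES_Obox6 and 342 to 366 TPM in ES_Dux. It was 680.1 TPM in ES_Obox8 and 1026 to 1272 TPM in the other 8 single libraries. The part of this difference in the values below was not tested. In the embryos 7 oocyte and early embryo markers summed to 607 to 668 TPM in ICSI_L2C, 472 to 513 TPM in SCNT_EGFP_L2C and 401 to 410 TPM in SCNT_Obox3_L2C. The sum of 6 markers of the 2-cell embryo was 383 to 560, 113 to 155 and 163 to 240 TPM in that order. The part of these embryo differences in the values below was not tested either. Nothing ties the 2 libraries of a group to separate cultures or collections, so the spread that p-values measure is that between these samples only and may be technical.

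The core particle is a barrel of 4 rings. Psma genes encode the outer alpha rings and Psmb genes the inner beta rings, of which Psmb5, Psmb6 and Psmb7 carry the cutting sites. In immune cells and under interferon, Psmb8, Psmb9 and Psmb10 take the place of these catalytic subunits, Psmb11 does so in the thymic cortex, and Psma8 is the alpha subunit of male germ cells. A regulatory particle caps the barrel: 6 Psmc ATPases unfold the substrate, and Psmd proteins recognise ubiquitin (Psmd4, Psmd2), remove it (Psmd14) or build the scaffold. Psme1 and Psme2 form an interferon-induced cap, Psme3 forms a nuclear cap, Psme4 forms a cap linked to acetylated histones and to the male germ line, Psmf1 is an inhibitor of the core, and Psmg1 to Psmg4 are chaperones that assemble the core.

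Core subunits were expressed together in mESCs. In ES_Empty the 14 constitutive core subunits (Psma1 to Psma7 and Psmb1 to Psmb7) had a median of 60.0 and 45.0 TPM in the 2 libraries, and the highest stood 4.74 and 5.14 times above the lowest. Over all 19 mESC libraries that ratio was 4.54 to 7.81. Psma6, an alpha-ring subunit, was high, with 128.6 and 102.4 TPM in ES_Empty, and so was the catalytic subunit Psmb6, with 119.7 and 91.7 TPM. The other catalytic subunits had 75.1 and 75.9 TPM (Psmb5) and 27.9 and 20.9 TPM (Psmb7). The lowest of the 14 was Psma2, Psma3 or Psmb7 in every mESC library. All 48 genes together had 1117 to 2432 TPM in the 19 mESC libraries (median 2019).

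In embryos the same 14 subunits were far less even. Their median was 9.6 to 13.4 TPM in the 6 embryo libraries, and the highest stood 15.6 to 116.8 times above the lowest. Psmb3, a beta-ring subunit, was the lowest in all 6 libraries, with 1.17 and 0.945 TPM in ICSI_L2C, 2.84 and 2.34 TPM in SCNT_Obox3_L2C, and 3.02 and 2.49 TPM in SCNT_EGFP_L2C. The highest in ICSI_L2C was the alpha-ring subunit Psma4, with 72.3 and 110.4 TPM, and in the 4 clone libraries it was Psma6, with 47.2 to 86.5 TPM. Among the catalytic subunits, Psmb5 had 17.4 and 17.0 TPM, Psmb6 had 8.72 and 10.7 TPM and Psmb7 had 11.2 and 9.99 TPM in ICSI_L2C. The 2 tables were normalised separately, so levels across them are set side by side without a test. For 1 kb of transcript, 1 TPM was estimated at 2.27 to 7.37 reads per mESC library and 5.06 to 13.9 reads per embryo library. The estimate took the most common low value of short RNA genes as 1 read. Under it, 55.7 to 66.1% of their values in mESCs and 57.7 to 63.1% in embryos came out as whole reads, so it is rough. By this estimate the lowest embryo values are based on few reads.

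**Figure D1:**
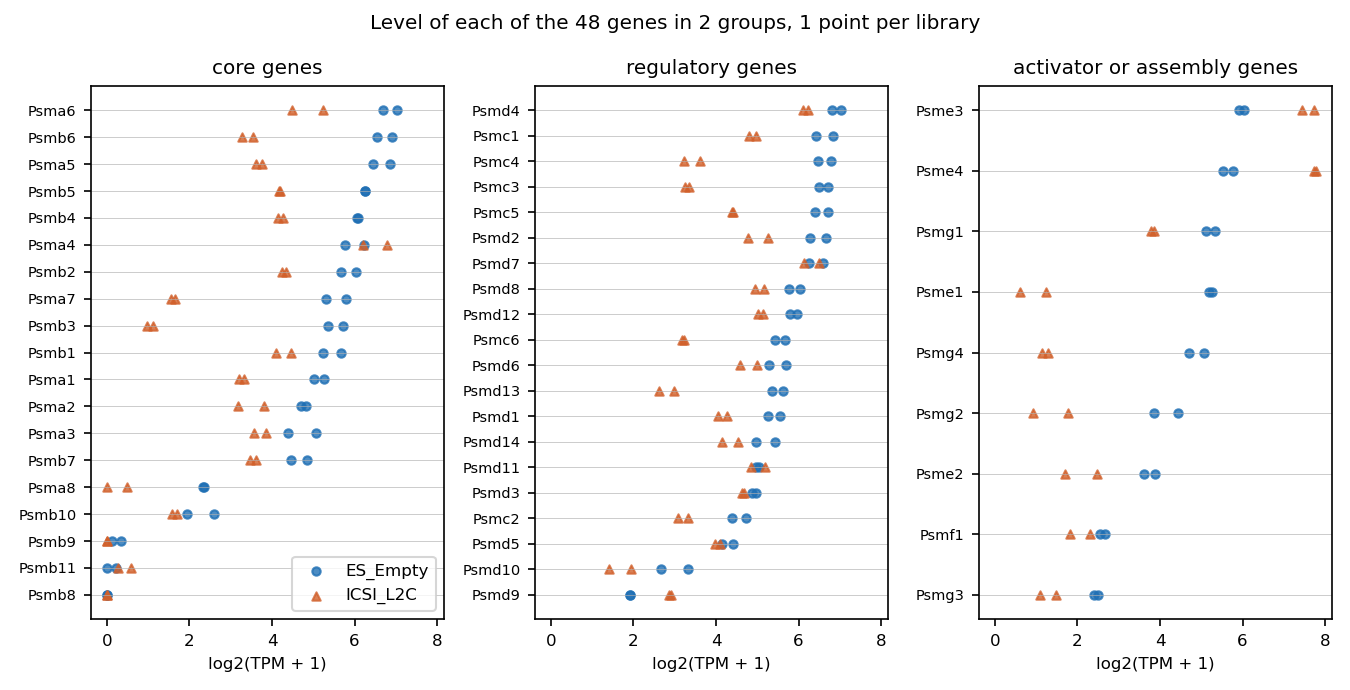
Level of each of the 48 genes as log2(TPM + 1) in the 2 ES_Empty libraries (circles) and the 2 ICSI_L2C libraries (triangles), in 3 panels by role and ordered by the ES_Empty mean. Most genes stand to the left in the embryos, while Psme3 and Psme4 stand to the right of their ES_Empty values, and Psmb8, Psmb9 and Psmb11 lie near 0 in both.

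Of the core subunits of immune, thymic and germ cells, Psmb8, Psmb9 and Psmb11 stayed below 1 TPM in every library. Psmb8 was at 0 in both ES_Empty libraries, reached at most 0.449 TPM in the 19 mESC libraries and 0.322 TPM in embryos, and was above 0 in 9 of 19 mESC and 1 of 6 embryo libraries. Psmb9 had at most 0.588 TPM in mESCs and was above 0 in 1 of 6 embryo libraries, at 0.396 TPM. Psmb11 had at most 0.361 TPM in mESCs and 0.507 TPM in embryos. These 3 genes passed the filter of 1 TPM in at least 2 libraries in neither table. Psma8 had 1.47 to 6.6 TPM in the mESC libraries and was above 0 in 1 of 6 embryo libraries, so 45 of 48 members were tested in mESCs and 44 of 48 in embryos. Psmb10, the remaining interferon-type subunit, had 1.27 to 5.41 TPM in mESCs and 1.97 to 6.13 TPM in embryos. It stood above Psmb8 and Psmb9 in both tables, and in SCNT_EGFP_L2C replicate 1, at 6.13 TPM, above the constitutive Psmb5 (5.09 TPM) and Psmb7 (5.45 TPM).

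Among regulatory genes, the ubiquitin receptor Psmd4 was the highest of all 48 members in each of the 19 mESC libraries, with 80.6 to 179 TPM. It had 54.5 to 79.0 TPM in embryos and ranked 4 or 5 there. Of the ATPases, Psmc1, Psmc3, Psmc4 and Psmc5 had medians of 81.6 to 91.9 TPM over the mESC libraries, while Psmc6 had 43.8 TPM and Psmc2 had 20.02 TPM. Of the scaffold genes, Psmd7 had 45.2 to 89.6 TPM in embryos and Psmd12 had 28.2 to 48.2 TPM. Assembly helpers of the cap were low: Psmd10 had 2.5 to 8.96 TPM and Psmd9 had 1.19 to 3.78 TPM in mESCs, whereas Psmd5 had a median of 18.1 TPM.

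Activators gave the clearest contrast between the 2 settings. Psme4 and Psme3 were the 2 highest members in each of the 6 embryo libraries, while in mESCs Psme3 ranked between 11 and 17 and Psme4 between 17 and 34 of 48. In ICSI_L2C Psme4 had 219 and 213 TPM and Psme3 had 174 and 211 TPM, against 53.2 and 44.9 TPM (Psme4) and 64.8 and 59.4 TPM (Psme3) in ES_Empty. Both genes together made up 23.6 to 35.8% of the members' TPM in embryos and 3.93 to 5.22% in mESCs, with no overlap. Relative to the median of the 14 core subunits of the same library, Psme4 stood at 9.32 to 18.1 in embryos and at 0.427 to 1.02 in mESCs. The interferon-induced pair was lower in embryos, as most members were. Psme1 had 37.4 and 35.5 TPM in ES_Empty, 0.519 and 1.34 TPM in ICSI_L2C and 4.63 to 7.43 TPM in the clones. Psme2 had 13.6 and 11.2 TPM in ES_Empty and 2.22 to 5.66 TPM in the embryo libraries. Of the 48 members, 7 had a higher mean over the embryo libraries than over ES_Empty, namely Psme3, Psme4, Psmd5, Psmd9, Psmb10, Psmb8 and Psmb11. For Psmd5 and Psmb10 the means were close (18.96 against 18.54 TPM and 4.31 against 3.94 TPM). Psmb8 (0.0536 against 0.0 TPM) and Psmb11 (0.257 against 0.0856 TPM) were below 1 TPM in every library. The share of all genes with a higher embryo mean was not determined, so the count of 7 only describes the members.

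**Figure D2:**
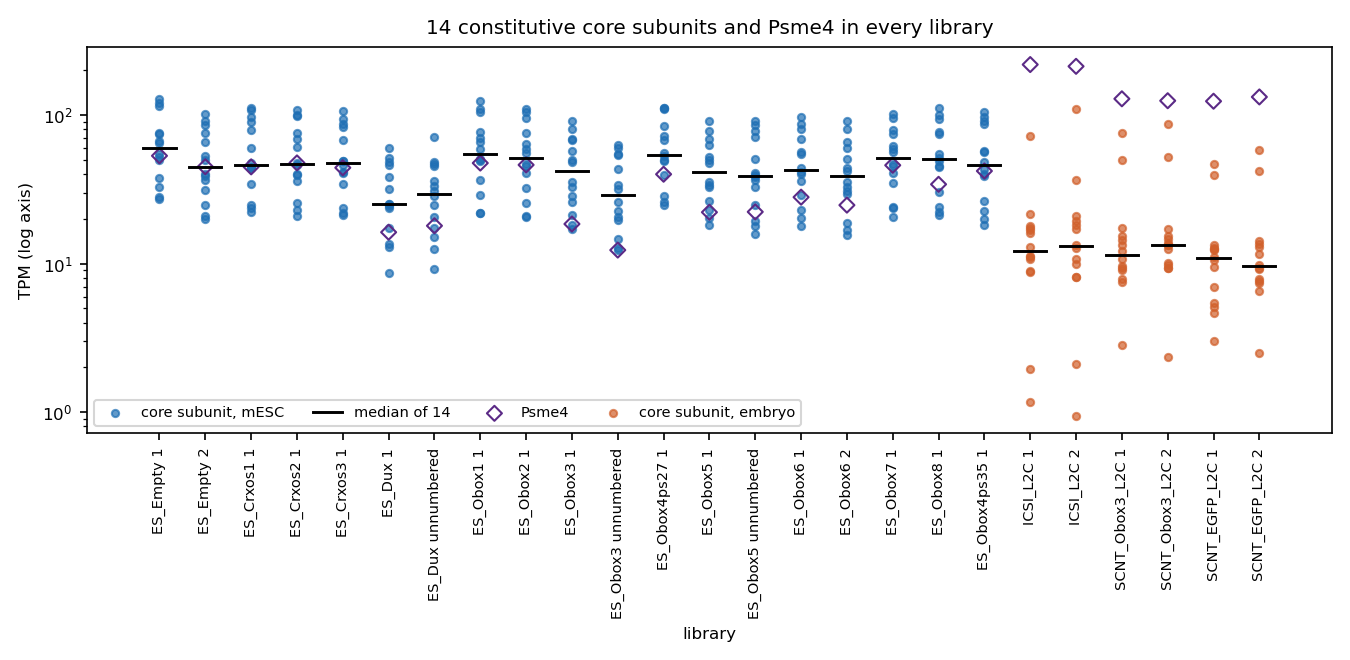
TPM on a log axis of the 14 constitutive core subunits (points), their median (lines) and Psme4 (diamonds) in each of the 25 libraries. The points span 4.54 to 7.81-fold in the mESC libraries and 15.6 to 116.8-fold in the embryo libraries, and Psme4 lies above every core subunit in the 6 embryo libraries.

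The inhibitor Psmf1 had 1.14 to 6.1 TPM in mESCs and 2.55 to 3.92 TPM in embryos. Among the core chaperones, Psmg1 had a median of 29.0 TPM in mESCs and 10.2 TPM in embryos. Psmg4 had medians of 28.5 and 3.55 TPM, Psmg2 of 13.1 and 2.36 TPM, and Psmg3 of 4.15 and 1.46 TPM. Across the 48 members, the order of mean levels in ES_Empty and ES_Dux had a Spearman rho of 0.967, that in ICSI_L2C and SCNT_EGFP_L2C of 0.899, and that in ES_Empty and ICSI_L2C of 0.655. These describe genes that share each library and its depth, and carry no test.

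The start regions of the genes were read from RefSeq (GRCm38.p6), which gave a window of 250 bases before to 50 after the start for 40 of the 48 members. Letters were searched on both strands. The ETS-type motif ACTTCCG stood in the windows of 14 of the 40 members (35%) and in 6.42% of all 32851 promoter windows. The 14 were Psma4, Psma6, Psmb4, Psmc1, Psmc2, Psmc4, Psmd6, Psmd8, Psmd12, Psmd13, Psmd14, Psme3, Psme4 and Psmg3. CCAAT stood in 14 of 40 (35%) against 37.4% of all windows, and TGACNNNGC, the core letters of the antioxidant response element that Nfe2l1 and Nfe2l2 bind, in 6 of 40 (15%) against 12.4%. The interferon response element stood in 5 of 40 (12.5%) against 3.44%, and TAATCC, bound by homeodomain proteins of the Crx and Otx type, in 3 of 40 (7.5%) against 7.06%. The members with TAATCC were Psma1, Psma3 and Psmd11. A match is a description of letters and not of a bound site.

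The last 150 bases before the start are shown for Psme4, the member with the largest difference in ES_Obox3, for Psmc1, which holds the ETS-type letters at 2 places, and for Psma7, the member with the largest difference in EGFP clones. Each reads 5′ to 3′ on the strand of its gene, and capitals mark ETS-type letters on either strand. Psme4 lies on the plus strand (chr11:30771625-30771774), Psmc1 on the plus strand (chr12:100110052-100110201) and Psma7 on the minus strand (chr2:180042465-180042614).
Psme4: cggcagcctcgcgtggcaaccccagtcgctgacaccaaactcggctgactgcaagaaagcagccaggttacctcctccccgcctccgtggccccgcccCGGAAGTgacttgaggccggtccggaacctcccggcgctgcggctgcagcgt
Psmc1: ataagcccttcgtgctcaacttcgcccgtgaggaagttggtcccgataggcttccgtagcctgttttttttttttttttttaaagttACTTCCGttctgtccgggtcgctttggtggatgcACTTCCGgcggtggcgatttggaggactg
Psma7: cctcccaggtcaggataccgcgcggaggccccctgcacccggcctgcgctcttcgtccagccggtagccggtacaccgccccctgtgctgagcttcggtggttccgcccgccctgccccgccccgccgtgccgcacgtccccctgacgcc
The ETS-type letters stood at bases -52 to -46 in Psme4 and at -63 to -57 and -29 to -23 in Psmc1. The Psma7 stretch held none of the motifs searched.

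Obox3 in mESCs was compared with the empty plasmid by limma on log2(TPM + 1), with calls requiring both a 2-fold difference and an adjusted p below 0.05. Psme4, the cap linked to acetylated histones, fell most. It had 53.2 and 44.9 TPM in ES_Empty and 18.5 and 12.3 TPM in ES_Obox3, and the groups did not overlap. The log2 fold change was -1.63 in the deposited values (SE 0.213, limma adjusted p = 0.00118) and -1.01 once scaled (SE 0.0852, adjusted p = 0.00022). It was called under all 16 alternatives, between -1.90 and -1.01. Relative to Psme3 of the same library, a ratio that no scaling moves, Psme4 stood at 0.820 and 0.756 in ES_Empty and at 0.332 and 0.308 in ES_Obox3. Psme4 is a gene of chromosome 11 (30771775 to 30881150).

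Of the 45 members tested in ES_Obox3, 0 were called higher and 2 lower, where 4.67% of all genes were called higher and 13.6% lower. The second was Psme2, with 13.6 and 11.2 TPM in ES_Empty and 7.17 and 4.31 TPM in ES_Obox3 (log2 fold change -1.02, SE 0.238, adjusted p = 0.0141). After scaling it was at -0.45 (adjusted p = 0.102), and it was not called without ES_Empty replicate 1 or without the unnumbered ES_Obox3 library. A near-identical copy, Psme2b, had 1.77 to 8.49 TPM in the mESC libraries, so how reads were split between the 2 genes is uncertain. The members' median was -0.63 and that of all genes -0.42, and after scaling these were -0.03 and 0.02. On the scaled values 0 members were higher and 1 lower, where 7.99% and 3.83% of all genes were. Leaving out the first ES_Obox3 library gave 12 members lower, leaving out ES_Empty replicate 2 gave 6, and leaving out the unnumbered ES_Obox3 library gave 1. The first and the unnumbered ES_Obox3 libraries differed in the share of the 10 most abundant genes (64.3 and 73.8%).

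The ubiquitin receptor Psmd4 stood at the other end in ES_Obox3. It had 128.9 and 111.2 TPM in ES_Empty and 173.2 and 126.9 TPM in ES_Obox3, so the lower ES_Obox3 library lay within the ES_Empty range. As deposited the log2 fold change was 0.31 (adjusted p = 0.283). After scaling it was 0.94 (SE 0.118, adjusted p = 0.00131), short of 2-fold. Psmd4 over the median of 11 non-ATPase cap subunits was 2.53 and 2.78 in ES_Empty and 4.42 and 4.19 in ES_Obox3.

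Obox5 and Obox6 were set against the same empty-plasmid libraries, so the 3 comparisons share their controls. In ES_Obox5, 0 of 45 members were called higher and 2 lower, where 4.79% and 5.47% of all genes were. Psme4 had 22.2 and 22.3 TPM there (log2 fold change -1.10, SE 0.213, adjusted p = 0.0111), and -0.79 (adjusted p = 0.000939) after scaling, below the fold threshold. It was called under 11 of 16 alternatives, and not when ES_Empty replicate 1 or either ES_Obox5 library was left out. Psme2 had 5.17 and 5.87 TPM (-1.04, adjusted p = 0.0227) and -0.73 (adjusted p = 0.0234) after scaling, and was not called when any 1 of the 4 libraries compared was left out. Psmd4 had 167 and 179 TPM, above both ES_Empty libraries, at 0.53 before scaling (adjusted p = 0.12) and 0.84 after it (SE 0.118, adjusted p = 0.00311). On the scaled values 0 members were called, where 6.2% of all genes were higher and 2.42% lower.

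In ES_Obox6, 0 members were called higher and 1 lower, where 2.39% and 1.99% of all genes were. That member was Psme2, with 4.58 and 5.89 TPM (log2 fold change -1.10, SE 0.238, adjusted p = 0.0336). It was called under 5 of 17 alternatives, and not when any 1 of the 4 libraries compared, an ES_Dux or an ES_Obox5 library was left out. Psme4 had 28.0 and 24.7 TPM, below both ES_Empty libraries, at -0.87 (SE 0.213, adjusted p = 0.0555) unscaled and -0.70 (SE 0.0852, adjusted p = 0.00339) after scaling. Psmd4 had 129.9 and 108 TPM and overlapped ES_Empty. After scaling 0 members were called, where 2.85% of all genes were higher and 1.34% lower.

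**Figure D3:**
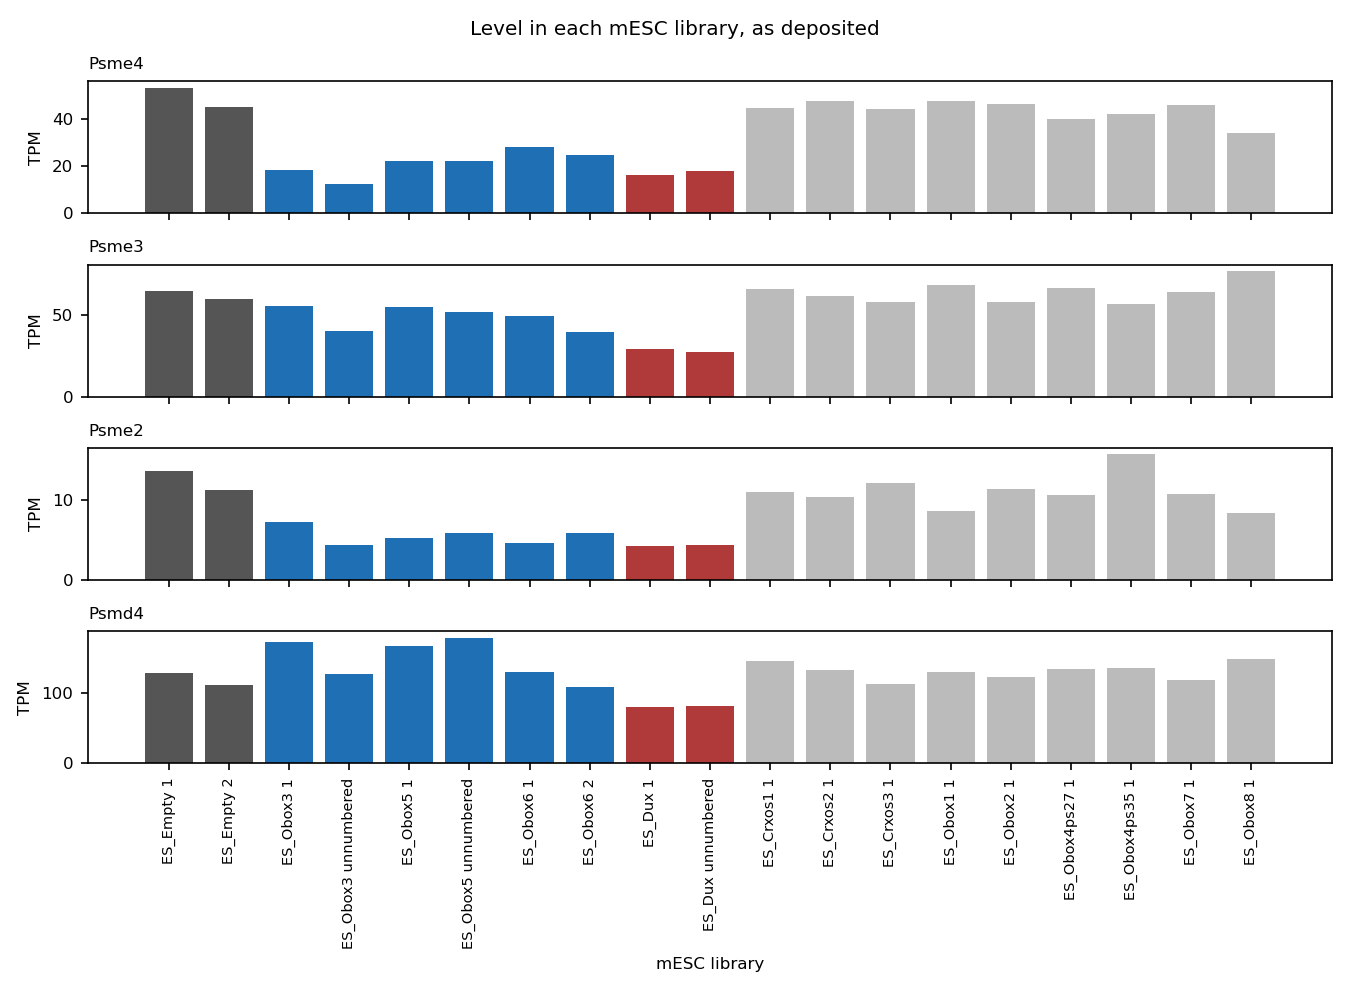
TPM of Psme4, Psme3, Psme2 and Psmd4 in each of the 19 mESC libraries, as bars from 0, with ES_Empty in dark grey, Obox3, Obox5 and Obox6 in blue, Dux in red and single libraries in light grey. Psme4 lies between 12.3 and 28.0 TPM in the Obox3, Obox5, Obox6 and Dux libraries and between 34.2 and 53.2 TPM in the others.

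Whether the factors differ was tested directly against ES_Obox3, where scaling also left 0 members called for Obox5 (0.02% of all genes higher and 0.0699% lower) and for Obox6 (2.69% and 4.95%). ES_Obox5 had 0 of 45 members called in either direction (0.0147% of all genes higher and 0.0393% lower), and Psme4 stood 0.53 above ES_Obox3 on the log2 scale (SE 0.213, adjusted p = 0.432). At an adjusted p alone, without the fold threshold, the count was also 0, and 3 members had an unadjusted p under 0.05. No share of all genes at an unadjusted p is given, so such counts, also that for ES_Obox6, describe the members only. ES_Obox6 had 0 called (6.61% and 2.52% of all genes), 6 members had an unadjusted p under 0.05, and 3 were called higher when the first ES_Obox3 library was left out. Psme4 was 0.76 higher in ES_Obox6 than in ES_Obox3 (SE 0.213, adjusted p = 0.0475), and 0.31 higher after scaling (adjusted p = 0.0438), short of 2-fold on both scales. The Psmd4 difference between ES_Obox6 and ES_Obox3 was -0.32 (adjusted p = 0.317) unscaled and -0.79 (SE 0.118, adjusted p = 0.00454) after scaling.

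In ES_Dux the share of most members was lower, and so was that of most genes. Of 45 members, 0 were called higher and 19 lower in ES_Dux against ES_Empty, where 4.12% of all genes were higher and 44.4% lower. The members' median was -0.93 and that of all genes -0.97. After scaling 0 members were called in either direction, where 8.33% of all genes were higher and 2.2% lower, the median was 0.42 against -0.01 for all genes, and 37 of 45 values were above 0. The count of 19 became 31 without ES_Empty replicate 2 and 13 without ES_Empty replicate 1. Psma5 has a pseudogene in the table, Psma5-ps (3.15 to 11.7 TPM in mESCs), so how reads were split between them is uncertain. The 19 were 4 core genes (Psma3, Psma5, Psma6 and Psmb2), 8 regulatory genes (Psmc1, Psmd5, Psmd6, Psmd7, Psmd11, Psmd12, Psmd13 and Psmd14) and 7 activator or assembly genes (Psme2, Psme3, Psme4, Psmf1, Psmg1, Psmg2 and Psmg3).

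Psmd7, a scaffold subunit of the lid, fell most. It had 94.8 and 74.8 TPM in ES_Empty and 23.9 and 20.4 TPM in ES_Dux, at -1.88 (SE 0.25, adjusted p = 0.000444) unscaled and -0.47 (adjusted p = 0.121) after scaling. Against ES_Obox3, with 76.4 and 58.2 TPM, it was at -1.55 (SE 0.25, adjusted p = 0.00182), and at -0.77 (adjusted p = 0.0175) after scaling. The core chaperone Psmg2 was the only other member of 45 called lower than in ES_Obox3 (-1.05, adjusted p = 0.0166), where 20.3% of all genes were lower and 3.42% higher. Without the unnumbered ES_Obox3 library 7 members were lower, without the unnumbered ES_Dux library 3, and without the first library of either group 1. After scaling, where 9.52% of all genes were higher and 9.46% lower, the core chaperone Psmg4 alone was called, higher than in ES_Obox3 (1.10, SE 0.271, adjusted p = 0.0171), with 23.9 and 15.1 TPM against 18.99 and 11.98 TPM.

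The call of Psme4 in ES_Dux depended on the scale. It had 16.3 and 18.0 TPM in ES_Dux, as low as in ES_Obox3, at -1.46 (SE 0.213, adjusted p = 0.000615) against ES_Empty. After scaling that difference was -0.06 (adjusted p = 0.647), whereas the ES_Obox3 difference stayed at -1.01. Between ES_Dux and ES_Obox3 it differed by 0.17 (adjusted p = 0.591) unscaled and by 0.95 (SE 0.0852, adjusted p = 0.000193) after scaling. Relative to Psme3 in the same library it stood at 0.555 and 0.655 in ES_Dux, between ES_Empty and ES_Obox3.

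**Figure D4:**
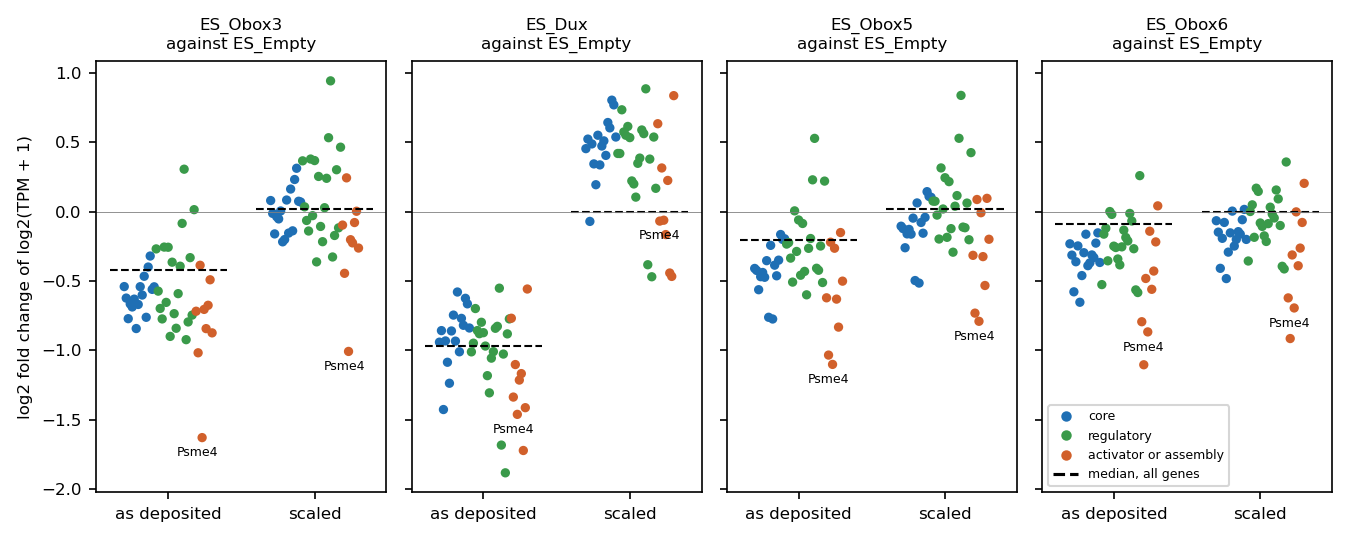
Log2 fold change of each of the 45 members tested against ES_Empty, as deposited and after median-ratio scaling, in 4 panels, coloured by role, with the median of all genes as a dashed line. Scaling lifts the ES_Dux values from a median of -0.93 to 0.42, while Psme4 remains the lowest member in ES_Obox3 at -1.01.

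The 9 single libraries have no replicate check. In each of them 0 of 45 members differed from the mean of ES_Empty by 2-fold or more. Of all genes, 2.76% were higher and 2.0% lower in ES_Crxos1, 2.79% and 2.27% in ES_Crxos2, and 5.74% and 1.38% in ES_Crxos3. The shares were 2.13% and 3.31% in ES_Obox1, 2.11% and 2.73% in ES_Obox2, 3.26% and 2.72% in ES_Obox4ps27, and 2.11% and 4.08% in ES_Obox4ps35. They were 5.41% and 1.99% in ES_Obox7 and 4.75% and 3.05% in ES_Obox8. Psme4 had 34.2 to 47.6 TPM in these libraries, with the lowest value in ES_Obox8, and Psme2 had 8.37 to 15.6 TPM. Relative to Psme3, Psme4 stood at 0.445 in ES_Obox8 and at 0.604 to 0.798 in the other 8. The lowest single ratio was that of Psmb10 in ES_Obox4ps27 (-0.78 on the log2 scale) and the highest that of Psma8 in the same library (0.59).

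Genes that work with the proteasome were taken as 3 lists: 9 measured genes for remaining subunits and bound factors (among them Adrm1, Sem1, Usp14, Uchl5 and Pomp), 8 for regulators of proteasome genes and for nuclear import, and 15 for ubiquitin and its shuttles. In ES_Obox3, 0 were called higher in any list, and 2 of 9, 1 of 8 and 3 of 15 were lower, where 13.6% of all genes were. These were the bound factor Ecpas (-1.15) and the deubiquitinase Uchl5 (-1.15), the stress regulator Nfe2l2 (-1.91), and the ubiquitin-independent shuttle Midn (-2.50) with the ubiquitin shuttles Ubqln2 (-2.05) and Ubqln4 (-1.88), with limma adjusted p from 0.000494 to 0.00828. After scaling 0 of 9, 1 of 7 and 3 of 15 were lower, against 3.83% of all genes. In ES_Obox5, Midn, Ubqln2 and Ubqln4 were lower (-2.10, -1.29 and -1.38), and in ES_Obox6 Ubqln4 was (-1.32), with 0 called in the other lists, where 5.47% and 1.99% of all genes were lower. After scaling Ubqln2 was no longer called in ES_Obox5, while the other 3 calls held. Set directly against ES_Obox3, ES_Obox6 had Nfe2l2 (2.10, adjusted p = 0.00173), Midn (1.45, adjusted p = 0.0123) and Ubqln2 (1.04, adjusted p = 0.0275) higher, where 6.61% of all genes were. After scaling Nfe2l2 and Midn were called and Ubqln2 was not. In ES_Dux 6 of 9, 6 of 8 and 11 of 15 were lower as deposited, where 44.4% of all genes were, and 0 after scaling. Nfe2l1, the main activator of proteasome genes, stood at -0.34 in ES_Obox3 (adjusted p = 0.296) and at -1.72 in ES_Dux (adjusted p = 0.00045), and the maturation factor Pomp at -0.22 (adjusted p = 0.537) and -0.75 (adjusted p = 0.0268). Scaling turned Pomp to 0.35 (adjusted p = 0.117) and 0.53 (adjusted p = 0.0322), and Nfe2l1 to 0.28 (adjusted p = 0.111) in ES_Obox3 and -0.36 (adjusted p = 0.0556) in ES_Dux.

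In cloned embryos that received EGFP mRNA, several members differed from fertilised embryos, in both directions. The labels give no mRNA injection for ICSI_L2C, so cloning and mRNA injection cannot be told apart in any comparison with it. Psma7, an alpha-ring subunit on chromosome 2 (180036367 to 180042464), had 1.95 and 2.12 TPM in ICSI_L2C and 13.2 and 11.5 TPM in SCNT_EGFP_L2C. Its log2 fold change was 2.14 (SE 0.188, limma adjusted p = 0.00208), and it was called under all 13 alternatives. Psme1, of the interferon-induced cap, had 0.519 and 1.34 TPM in ICSI_L2C and 7.43 and 4.63 TPM in the clones (1.87, SE 0.311, adjusted p = 0.00943). The ATPase Psmc3 had 8.46 and 9.1 TPM against 24.0 and 21.3 TPM (1.27, SE 0.167, adjusted p = 0.00482), and was called under all 13 alternatives.

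In all, 5 of 44 members were called higher and 2 lower in SCNT_EGFP_L2C than in ICSI_L2C, where 4.8% of all genes were higher and 12.5% lower. The chaperone Psmg4 rose from 1.22 and 1.42 TPM to 5.22 and 9.51 TPM (1.80, SE 0.402, adjusted p = 0.0227). Psmb10, the interferon-type catalytic subunit, rose from 2.27 and 1.97 TPM to 6.13 and 5.05 TPM (1.08, SE 0.229, adjusted p = 0.0195). The constitutive catalytic subunit Psmb5 fell from 17.4 and 17.0 TPM to 5.09 and 9.35 TPM (-1.20, SE 0.268, adjusted p = 0.023), and Psma4 fell from 72.3 and 110.4 TPM to 39.2 and 42.3 TPM (-1.12, SE 0.225, adjusted p = 0.0167). After scaling, where 6.12% of all genes were higher and 8.82% lower, 7 members were higher, the same 5 with Psma6 (1.09, adjusted p = 0.0178) and Psmd2 (1.05, adjusted p = 0.00845), and 0 were lower, with Psmb5 at -0.995 (adjusted p = 0.0313) and Psma4 at -0.90 (adjusted p = 0.0164).

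These calls rest on 2 libraries a group. Without the first SCNT_EGFP_L2C library 2 members were higher and 0 lower, without the second 3 and 3, without ICSI_L2C replicate 1 3 and 1, and without replicate 2 5 and 0. Psme1 was not called without the first SCNT_EGFP_L2C library. Psmb10 and Psmg4 were not called without any 1 of the 4 libraries compared, Psma4 not without the first SCNT_EGFP_L2C library or ICSI_L2C replicate 2, and Psmb5 not without either ICSI_L2C library or the first SCNT_EGFP_L2C library.

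The activators with the highest levels in embryos differed by less than 2-fold. Psme4 had 219 and 213 TPM in ICSI_L2C against 124 and 132 TPM in SCNT_EGFP_L2C and 129 and 125 TPM in SCNT_Obox3_L2C. The clones all lay below ICSI_L2C, at -0.75 (SE 0.151, adjusted p = 0.0166) and -0.76 (adjusted p = 0.0264), short of 2-fold. After scaling the values were -0.53 (adjusted p = 0.0336) and -0.51 (adjusted p = 0.0576). Psme3 had 124 and 170 TPM in the EGFP clones and 144 and 145 TPM in the Obox3 clones, all below ICSI_L2C (174 and 211 TPM). Its limma adjusted p against ICSI_L2C was 0.223 and 0.25.

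Clones that received Obox3 mRNA had 4 of 44 members called higher and 0 lower than ICSI_L2C, where 2.8% of all genes were higher and 6.31% lower. This comparison shares ICSI_L2C with the one above. Psma7 had 9.02 and 9.32 TPM (log2 fold change 1.74, SE 0.188, adjusted p = 0.00816) and was called under all 13 alternatives. Psme1 had 6.76 and 6.65 TPM (2.03, adjusted p = 0.0141), Psmc3 18.2 and 19.3 TPM (1.01, adjusted p = 0.0169) and Psma6 75.7 and 86.5 TPM against 21.4 and 36.8 TPM (1.49, adjusted p = 0.022). After scaling, where 4.07% of all genes were higher and 3.85% lower, Psmd2 (1.12, adjusted p = 0.0131) and Psmb10 (1.17, adjusted p = 0.0369) were also higher. Without ICSI_L2C replicate 1, or without either SCNT_Obox3_L2C library, 1 member was called, and without ICSI_L2C replicate 2 there were 3.

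Obox3 mRNA itself was tested against EGFP mRNA in clones. With limma 0 of 44 members were called in either direction, where 0.11% of all genes were higher and 0.0438% lower, and 0 were called at an adjusted p alone or when any 1 library was left out. At an unadjusted p under 0.05 there were 9, with no share of all genes to set beside them, so this count describes the members only. The members' median was 0.24 and that of all genes -0.03, with 30 of 44 values above 0. The highest values were those of Psmb5 (13.3 and 13.7 against 5.09 and 9.35 TPM, 0.87, adjusted p = 0.175), Psmg3 (0.85, adjusted p = 0.205) and Psmd7 (76.7 and 81.2 against 45.2 and 51.2 TPM, 0.70, adjusted p = 0.135). After scaling 0 members were called, where 1.41% of all genes were higher and 0.17% lower, and Psmd7 reached an adjusted p of 0.0476 at 0.74, short of 2-fold. The lowest were those of Psmg4 (-0.91, adjusted p = 0.299), Psmd13 (-0.54, adjusted p = 0.257) and Psmd10 (-0.48, adjusted p = 0.472).

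**Figure D5:**
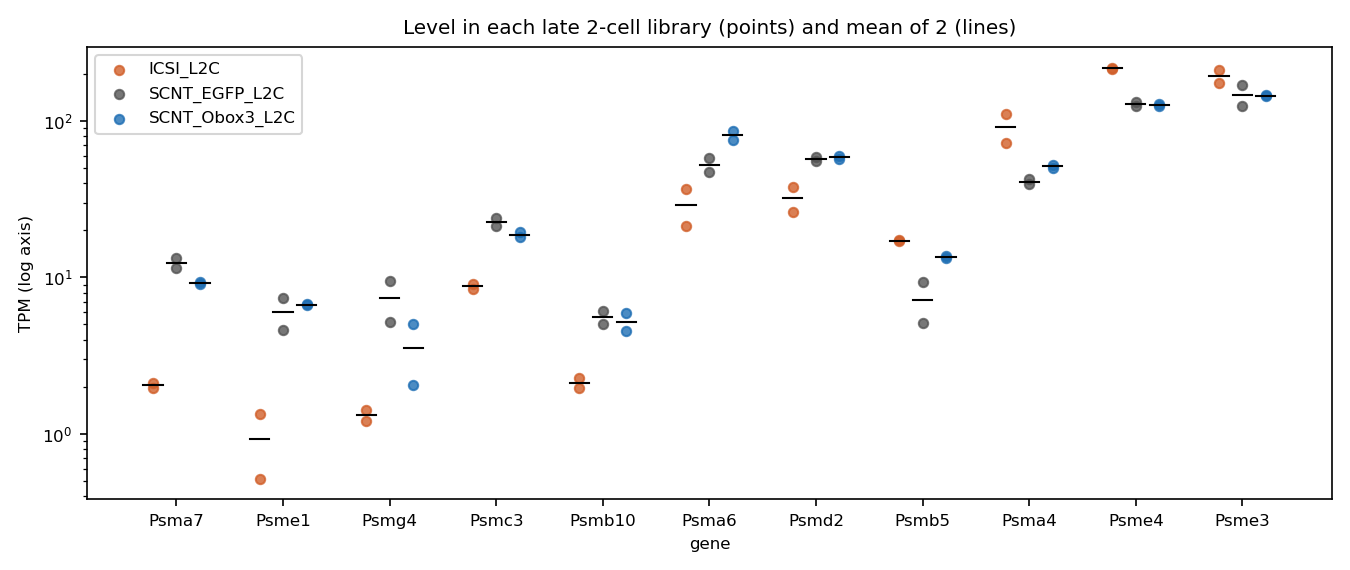
TPM on a log axis of 11 members in the 6 late 2-cell libraries, with 1 point per library and lines at the mean of 2, by group. Psma7, Psme1, Psmg4, Psmc3, Psmb10, Psma6 and Psmd2 are higher in all 4 clone libraries than in both ICSI_L2C libraries. Psmb5, Psma4, Psme4 and Psme3 are lower in all 4.

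Markers of other cells were measured beside these members. Of 7 cumulus and granulosa cell markers the sum was 23.1 to 27.0 TPM in ICSI_L2C, 17.4 to 18.96 TPM in SCNT_Obox3_L2C and 7.74 to 12.1 TPM in SCNT_EGFP_L2C, and 2 of 7, 1 of 7 and 2 of 7 were at 0 in both libraries. Most of it was Amhr2, the 1 marker that passed the filter, with 22.3 and 25.03 TPM, 15.9 and 17.6 TPM, and 6.82 and 10.7 TPM in that order. Of 11 interferon and antigen presentation genes the sum was 19.3 to 21.2, 22.6 to 30.3 and 35.8 to 40.4 TPM in the same order, and 3 of the 11 passed the filter. B2m, the light chain of MHC class I, had 8.94 and 5.97 TPM in ICSI_L2C, 23.8 and 15.03 TPM in SCNT_Obox3_L2C and 19.98 and 24.3 TPM in SCNT_EGFP_L2C. It was called higher in both clone groups (1.47, adjusted p = 0.0147 in EGFP clones, and 1.26, adjusted p = 0.0387 in Obox3 clones). Irf1, an interferon-response regulator, was called lower in Obox3 clones (-1.22, adjusted p = 0.0272), though not after scaling, and the median of the 3 was 0.24 in EGFP clones and -0.48 in Obox3 clones. The part of these genes in the Psme1 and Psmb10 values was not tested. In mESCs the 11 summed to 20.6 to 26.2 TPM in ES_Empty and 10.1 to 18.6 TPM in ES_Obox3. The sums were 17.9 to 19.3 TPM in ES_Obox5, 16.9 to 22.4 TPM in ES_Obox6 and 6.2 to 10.5 TPM in ES_Dux. Irf1 was called lower in ES_Obox3 (-1.31), ES_Obox6 (-1.30) and ES_Dux (-1.74), and Tapbp in ES_Dux (-1.13). After scaling only Irf1 in ES_Obox6 was (-1.07). Their part in the Psme2 values was not tested. Of 6 leukocyte markers the sum was at most 4.8 TPM in the embryos. In bulk samples fewer cells of a type and less RNA per cell cannot be told apart.

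Of the 3 lists of partner genes, SCNT_EGFP_L2C against ICSI_L2C had 1 of 9 remaining subunits and bound factors higher (Uchl5, 1.02, adjusted p = 0.0445) and 2 lower (the ubiquitin receptor Adrm1, -1.11, adjusted p = 0.00942, and the small cap subunit Sem1, -1.20, adjusted p = 0.0147). Of all genes 4.8% were higher and 12.5% lower. In the list of ubiquitin and shuttles 0 of 15 were higher and 4 lower, among them the ubiquitin fusion gene Rps27a (-1.34), the unfoldase Vcp (-1.08) and Ubqln2 (-1.52), with adjusted p from 0.00786 to 0.0205. After scaling these counts were 1 and 1 of 9, and 1 and 3 of 15, against 6.12% and 8.82% of all genes. Among 8 regulators 0 were called, and Nfe2l1 was at 0.09 (adjusted p = 0.824). In Obox3 clones, where 2.8% of all genes were higher and 6.31% lower, Ubqln2 alone was called against ICSI_L2C (-2.11, adjusted p = 0.00996), with Uchl5 (1.28, adjusted p = 0.0368) and the Vcp partner Ufd1 (1.09, adjusted p = 0.0384) added after scaling, and 0 were called against EGFP clones.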

How the data were processed

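The 48 members and all gene lists were chosen with earlier results of these data known. The authors deposited TPM per gene, 1 table for mESCs and 1 for embryos, normalised separately, so tests were made within a table. HISAT2, Trim Galore and featureCounts 1.6.5, and the build mm10, are named in the submitters' processing notes, with no role or order. Log2(TPM + 1) was tested with limma 3.58.1 in R 4.3.3 (trend and robust), after a filter of 1 TPM in at least 2 libraries, on 20355 genes in mESCs (10 libraries) and 18252 in embryos (6 libraries), with Benjamini-Hochberg adjustment over all of them. Calls needed a log2 fold change of at least 1 in size together with an adjusted p below 0.05. The fit was tested on simulated data. With 2 libraries a group, an exact permutation test cannot go below p = 0.333. Named members were those called in a comparison as deposited or scaled, or, with none called, the 3 highest and 3 lowest. Psmd4, and members set beside a call in another comparison, were chosen after their values were seen. In ES_Dux, ES_Obox3 and ES_Obox5, 1 library column each bears a replicate number that no sample label of the group has. These 3 were used as the second library of their group and are called unnumbered here. Whether they are the second labelled samples of these groups is not known. Alternatives were median-ratio scaling, removal of the 10 most abundant genes, a pseudocount of 0.1, no filter, only the groups compared, each library left out, a replicate block and the adjusted p alone. The other 63 samples were not analysed here. The values of 1 gene of the lists are not reported here.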

Additional observations from a re-analysis of the deposited data

Results flagged for a closer look

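The ATPase Psmc4 was lower in both ES_Obox3 libraries (71.8 and 44.4 TPM) than in both ES_Empty libraries (109 and 87.1 TPM), at -0.77 on the log2 scale, and higher in both Obox3 clone libraries (16.7 and 15.5 TPM) than in both EGFP clone libraries (12.3 and 14.9 TPM), at 0.23. The 2 effects of Obox3 lay 1.01 apart. The cap assembly helper Psmd5 moved likewise, at -0.92 in mESCs (11.3 and 7.56 against 16.8 and 20.3 TPM) and 0.36 in clones (20.3 and 26.7 against 16.7 and 19.2 TPM), 1.29 apart. In each of the 2 genes, every library moved one way in mESCs and the other way in clones. Other members did so too, among them Psma1, Psma3, Psmb5 and Psmd12, so the pattern is not particular to Psmc4 and Psmd5. Psmd12 had 39.3 and 30.3 TPM in ES_Obox3 against 61.85 and 54.7 TPM in ES_Empty. In clones it had 40.7 and 48.2 TPM with Obox3 against 28.2 and 32.7 TPM with EGFP. The difference between the settings was not tested, since the tables were normalised separately. After scaling the effects were -0.14 and 0.27 for Psmc4 and -0.33 and 0.40 for Psmd5.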

How the results depend on the processing

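Counts are of members called against ES_Empty unless another group is named. Apart from median-ratio scaling, the shares of all genes called under these alternatives are not given, here or above. The counts under them, also those with a library left out, therefore describe the members only. After median-ratio scaling 1 was lower in ES_Obox3, 0 in ES_Dux, ES_Obox5 and ES_Obox6, 1 higher and 0 lower in ES_Dux against ES_Obox3, and 0 lower in SCNT_EGFP_L2C against ICSI_L2C. Without the 10 most abundant genes 1 was lower in ES_Obox3, 4 in ES_Dux and 0 in ES_Obox5, and against ICSI_L2C 9 were higher and 0 lower in SCNT_EGFP_L2C and 7 higher in SCNT_Obox3_L2C. A pseudocount of 0.1 gave 4 lower in ES_Dux against ES_Obox3 and 1 past 2-fold lower in ES_Obox4ps27. Without the filter 1 was lower in ES_Obox5, 0 in ES_Obox6, 1 in ES_Dux against ES_Obox3 and 1 in SCNT_EGFP_L2C against ICSI_L2C. With only the groups compared ES_Obox6 had 0 lower. At an adjusted p alone 17 were lower in ES_Obox3, 43 in ES_Dux and 10 in ES_Dux against ES_Obox3, 2 higher in ES_Obox6 against ES_Obox3, and 5 lower in SCNT_EGFP_L2C and 1 in SCNT_Obox3_L2C against ICSI_L2C.

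Leaving out 1 library at a time gave 1 to 12 lower in ES_Obox3, 13 to 31 in ES_Dux, 0 to 2 in ES_Obox5, 0 to 1 in ES_Obox6 and 1 to 7 in ES_Dux against ES_Obox3, and 0 to 3 higher in ES_Obox6 against ES_Obox3. Against ICSI_L2C it gave 2 to 5 higher and 0 to 3 lower in SCNT_EGFP_L2C and 1 to 4 higher in SCNT_Obox3_L2C. An arm left with 1 library was assumed to vary like the others. Reversed under scaling in ES_Dux were Psmd11 (0.20), Psmd12 (0.10), Psma6 (0.19), Psmc1 (0.42), Psmd6 (0.38), Psmg1 (0.22), Psmd13 (0.35), Psmd14 (0.39), Psmb2 (0.41), Psma5 (0.34) and Psme3 (0.31). With a library left out, against ES_Obox3, values changed sign for Psmb10 (-0.65 to 0.31), Psmg2 (-0.37 to 0.051, with 0.041) and Psma8 (-0.46 to 0.27, with 0.030) in ES_Obox5, and for Psmc1 (-0.54 to 0.025) and Psmd7 (-0.54 to 0.075) in ES_Obox6. The cause was not tested. A check for pairing of same-numbered libraries gave correlations of 0.0555 (ES_Empty and ES_Obox6), 0.014 (ICSI_L2C and SCNT_EGFP_L2C), 0.0461 (ICSI_L2C and SCNT_Obox3_L2C) and 0.0666 (both clone groups). These are not correlations of expression levels, which were 0.951 to 0.971 over all genes between the 2 libraries of a group. They gave no sign of pairing by number, but cannot show whether libraries shared a culture or collection. With a replicate block as pairing 0 were lower in ES_Obox6.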
